A study of Mus musculus with 4 samples.

Results

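The regions described here are clusters of IGF2BP3 eCLIP-seq reads that lay in the coding sequence (CDS) of long internal exons. A cluster was taken where its centre fell, on the same strand, in the CDS of an exon of at least 400 bases that was neither the first nor the last of its transcript. The centre also had to lie more than 100 spliced CDS bases from the start and from the stop codon. Exons came from 1 transcript for each of 21951 protein-coding genes of the GENCODE M21 basic set on mm10. The rule took 6795 of 337234 clusters in replicate 1 and 5285 of 216354 in replicate 2, which made 12080 of 553588 in all. No measured value entered this choice among clusters, but the clusters themselves had been found from the reads of these libraries.

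The eCLIP-seq libraries came from testes of wild type C57BL/6 mice that were 8 weeks old, and the tissue held both germ cells and somatic cells. Crosslinking used 3 rounds of UV light (254 nm, 400 mJ/cm2) on material from 2 testes. Each crosslinked RNA was thus held by the protein that touched it. Each of 2 replicates paired an IP library, made with an antibody to IGF2BP3, with a size-matched input (SMInput), which was 2% of the lysate and had no antibody. The study describes them as biological replicates.

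IGF2BP3 is a cytoplasmic RNA-binding protein with RNA recognition motifs and KH domains that binds many mRNAs and has been described as a reader of m6A, a methylated form of adenosine. In mammalian mRNAs m6A is placed within a short sequence called DRACH, often in long internal exons and near stop codons. Exon junction complexes, which sit on mRNA close to spliced exon borders, are known to keep the methyltransferase away from short internal exons. Methylation itself was not measured in these libraries.

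For each cluster the deposited tables gave a log2 ratio of IP over SMInput reads, each scaled to its library, and a −log10(P value) of that comparison. The read numbers behind them were worked out from both values. Replicate 1 had 5133438 usable IP and 8706391 usable SMInput reads, and replicate 2 had 4637612 and 16696122. A cluster in a long internal exon had a median width of 50 bases in replicate 1 and 54 bases in replicate 2. It held a median of 8 IP and 6 SMInput reads in replicate 1, and 8 and 12 in replicate 2. These medians cover the 5829 and 4853 clusters with recovered reads. They leave out 963 clusters (14.2%) in replicate 1 and 425 (8.04%) in replicate 2 with a −log10(P value) listed at 0, and 3 and 7 clusters at the highest listed value of 400. All 10 of the latter lay in Sox30, Ggn, Pom121 and 1700017B05Rik.

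A cluster was called when both its log2(fold change) and its −log10(P value) were at least 2. In long internal exons 552 clusters were called in replicate 1, or 8.12% (95% Wilson interval 7.50 to 8.80), beside 4.92% of all clusters of that replicate. In replicate 2, 652 were called, or 12.3% (11.5 to 13.3), beside 13.2% of all clusters. The share was therefore above that of all clusters in replicate 1 and slightly below it in replicate 2. Most other clusters lay outside CDS and were thinner, and over all clusters the median was 4 IP reads in both replicates. Within CDS as a whole, 5.36% of clusters were called in replicate 1 and 8.08% in replicate 2. Intervals on shares cover counting error only, since neighbouring clusters share reads and clusters of a gene share an mRNA.

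The 101121 CDS clusters in internal exons under 200 bases, held to the same distance from both codons, were the nearest comparison. Of these, 4.0% (3.84 to 4.16) were called in replicate 1 and 6.24% (6.02 to 6.46) in replicate 2. Internal exons of 200 to under 400 bases were alike, with 4.23% (3.86 to 4.63) and 5.97% (5.48 to 6.49). Long internal exons stood 4.13 and 6.10 percentage points above the short ones, and the Wilson intervals did not overlap in either replicate. CDS clusters in first and last exons were called more often still, at 12.1% and 16.6% in first exons and 13% and 20.6% in last exons. The median log2(fold change) was 0.76 and 0.85 in short internal exons, 1.08 and 1.14 in long internal exons, and 1.35 and 1.49 in last exons. First exons, at 1.03 and 1.15, were close to long internal exons. It was 1.5 and 1.53 over all clusters, many of which rested on fewer reads.

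Among long internal exons the share of called clusters was higher in the longer ones. In exons of 400 to under 600 bases 6.09% of clusters were called in replicate 1 and 10% in replicate 2. From 600 to under 1000 bases the shares were 7.27% and 11.3%. From 1000 to under 2000 bases they were 10.1% and 14.6%. At 2000 bases or more they were 9.21% and 13.8%, so the longest class did not exceed the one before it. Right at the limit of 400 bases there was little difference. Of clusters in exons of 375 to under 400 bases, 2.77% of 289 were called in replicate 1 and 5.94% of 219 in replicate 2. Of those in exons of 400 to 424 bases, 4.31% of 209 and 6.02% of 166 were.

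The density of clusters went the other way. Replicate 1 had 3.31 clusters per kilobase of internal CDS in exons of 100 to under 200 bases and 1.44 in exons of at least 2000 bases, and replicate 2 had 2.76 and 1.07. Called clusters per kilobase differed less, with 0.132 and 0.133 in replicate 1 and 0.171 and 0.147 in replicate 2. Exons of 1000 to under 2000 bases had 0.160 and 0.186 called clusters per kilobase, and those under 100 bases had 0.177 and 0.231. The higher share in long exons thus came with fewer clusters per base, and called clusters per base were not uniformly more frequent in them. These densities count the exons of all genes, whether or not the testis expressed them. Of 4575 long internal exons, in 3639 genes, 2441 (53.4%) held a cluster in at least 1 replicate, and 1768 held clusters in both.

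Position within the exon showed the same contrast between share and density. In replicate 1, 5.48% of clusters centred less than 50 bases from the nearer exon border were called (4.21 to 7.09), against 10.5% of those at least 400 bases away (9.15 to 11.9). Replicate 2 had 9.13% (7.25 to 11.4) and 15.2% (13.4 to 17.1). The classes between them were 6.40%, 6.90% and 8.77% in replicate 1 and 11.4%, 10% and 13.4% in replicate 2, for distances from 50, 100 and 200 bases up to the next class. Called clusters per kilobase were 0.138 at less than 50 bases and 0.144 at 400 bases or more in replicate 1, and 0.175 and 0.163 in replicate 2. The share was higher far from the borders also among exons of at least 1000 bases alone, at 5.77% within 100 bases and 10.5% beyond 200 bases in replicate 1, and 10.8% and 15.1% in replicate 2. The Wilson intervals overlapped in replicate 2 (7.74 to 15.0 and 13.6 to 16.8). In exons of 400 to under 1000 bases the shares were 5.89% and 7.72% in replicate 1, and 9.88% and 12.6% in replicate 2. There the intervals overlapped in both replicates. Along the CDS, the share called was 6.71%, 8.68% and 9.34% in 3 equal parts from the 5′ to the 3′ end in replicate 1 and 10.8%, 13% and 13.5% in replicate 2. In replicate 1 the Wilson intervals of these parts were 5.78 to 7.77, 7.70 to 9.78 and 7.99 to 10.9. In replicate 2 they overlapped throughout, at 9.48 to 12.3, 11.6 to 14.4 and 11.7 to 15.5.

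Among clusters with recovered reads, the contrast between long and short internal exons was present at each depth of reads. Left out are the uncalled clusters with a −log10(P value) listed at 0. They were a larger part of short than of long internal exon clusters in both replicates. Taken over all depths, the shares are thus raised in both kinds of exon, and unequally. The depth of the clusters left out could not be worked out. Among clusters with fewer than 10 IP and SMInput reads together, 2.12% were called in long and 1.07% in short internal exons of replicate 1, and 11.7% and 6.38% in replicate 2. With 20 to 49 reads the shares were 11.9% and 7.63%, and 12.4% and 6.35%. With 100 reads or more they were 27.7% and 18.4%, and 21.5% and 10.9%. Long exons were ahead in each of 5 classes of read number in both replicates, although the class of fewest reads shows mainly what depth allows a call.

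Within a gene, both kinds of exon share the level of the mRNA as far as the same transcripts hold both, which was not checked. In replicate 1, 1351 genes had clusters in both, and the median log2(fold change) was higher in the long exons of 808 (59.8%, 57.2 to 62.4) and in the short exons of 506. In replicate 2 it was higher in the long exons of 719 of 1203 genes (59.8%, 57.0 to 62.5) and in the short exons of 472. The median difference, long minus short, was 0.22 in replicate 1 and 0.17 in replicate 2. Of 1081 genes with both kinds in both replicates, 444 had the higher median in long exons both times, 190 had it in short exons both times and 447 changed order or were tied. The difference within genes was therefore small and far from general. Pom121 was a clear case, at 2.70 in 12 long exon clusters against 1.20 in 11 short exon clusters in replicate 1, and 2.76 against 1.44 in replicate 2. Lrrc37a had the opposite order, with 2.25 in long and 2.67 in short exons in replicate 1 and 2.39 and 3.26 in replicate 2.

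Clusters were found separately in each replicate, and 2841 of those of replicate 1 (41.8%) overlapped 1 of replicate 2 by at least 1 base. In the other direction it was 2679 (50.7%). Over the 3125 overlapping pairs, log2(fold change) was correlated at 0.639 by Pearson's and 0.599 by Spearman's coefficient, a description across clusters that share libraries. Pearson's r was 0.178 for the 281 pairs with fewer than 10 reads in replicate 1 and 0.933 for the 191 pairs with 100 or more. Single values of thin clusters were thus poorly repeated. Of called clusters of replicate 1 that met a cluster of replicate 2, 197 of 331 (59.5%) met a called one, against 239 of 2510 (9.52%) of the others. In replicate 2 it was 181 of 376 (48.1%) against 150 of 2303 (6.51%).

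Overlapping called clusters of both replicates, joined where they touched, made 131 sites in 86 exons of 84 genes. They are called shared sites here. Of these genes, 57 had 1 site, 14 had 2 and 13 had 3 or more. The sites had a median width of 98.0 bases, from 24 to 447, and 119 lay in exons that were internal in every basic transcript that contained them. Exons of at least 1000 bases held 70 sites (53.4%), beside 52.4% of the eligible bases of long internal exons. The centre was less than 100 bases from a border in 25 sites (19.1%), beside 19.1% of eligible bases. Shared sites were thus spread over exon lengths and borders much as the sequence itself was. In 28 sites the largest log2(fold change) was at least 3 in both replicates, and in 9 it was at least 4.

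The site with the largest smaller log2(fold change) of both replicates lay in exon 2 of 1700017B05Rik, a gene without a settled role, at chr9:57257881-57258030 on the minus strand. Its clusters reached 7.04 in replicate 1, where 4 bases held 155 IP and 2 SMInput reads, and 5.59 in replicate 2, listed at a −log10(P value) of 400. The exon is 2755 bases long and is not internal in every transcript of the gene. F5, which encodes coagulation factor V, came next with 5.01 and 5.02 in exon 13, from 19 IP reads and 1 SMInput read in replicate 1 and 18 and 2 in replicate 2. With so few SMInput reads its ratio is loosely fixed.

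Muc1, which encodes a membrane mucin, had 4.98 and 5.96 at chr3:89231054-89231183 in exon 2, with 56 IP against 3 SMInput reads in replicate 1 and 52 against 3 in replicate 2. Sox30 encodes a transcription factor that round spermatids need. Its exon 4, of 493 bases, held a site of 355 bases at chr11:45991757-45992111 that ran to the 3′ border of the exon. The 8 clusters of replicate 1 in it lay between 2.44 and 4.48, and the 8 of replicate 2 between 2.39 and 4.67. Both replicates peaked on nearly the same bases, at 45992046-45992094 in replicate 1 and 45992047-45992095 in replicate 2, and both of these clusters were listed at 400. The clusters in short internal exons of Sox30 were also called, 2 of 2 in replicate 1 and 3 of 3 in replicate 2, with medians of 2.75 and 2.62.

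Cnot4, an E3 ubiquitin ligase tied to the CCR4-NOT deadenylase, was covered in a like way. A site of 376 bases at chr6:35051062-35051437 took most of its exon 10, of 498 bases. All 9 clusters of replicate 1 (2.84 to 4.08) and all 5 of replicate 2 (3.03 to 4.77) in the long exon were called. Its short internal exons had medians of 1.82 and 1.85. St8sia3, a sialyltransferase, reached 3.96 and 4.27 in exon 5, with up to 46 and 43 IP reads in a cluster. Nfatc3, a calcium-regulated transcription factor, reached 3.72 and 3.94 in exon 9, with 31 IP against 4 SMInput reads in replicate 1 and 17 against 4 in replicate 2. In each of the 7 genes from 1700017B05Rik to Nfatc3 the highest cluster of the site was above an 8-fold ratio in both replicates.

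Fam186a had the most shared sites, with 7 in exon 4 of 7978 bases. The long exon held 21 clusters in replicate 1, of which 12 were called, and 19 in replicate 2, of which 10 were called. Their medians were 2.70 and 2.85, and the lowest were 0.03 and 1.04. The sites with the highest values lay at chr15:99943409-99944873, in a repetitive stretch. In 5 sites of Fam186a, more than 50% of runs of 20 bases occurred again in the same exon, and no other shared site had such a share. Reads from these repeats can be placed on several copies, so the single positions are uncertain. Leaving out Fam186a, a choice made after seeing the data, gives 124 shared sites.

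Pom121, a membrane-anchored protein of the nuclear pore, had 4 sites in exon 11 of 1617 bases. In replicate 1, 9 of 12 clusters were called and in replicate 2, 13 of 16, with values from 1.79 to 3.62 and from 1.24 to 4.27. Its strongest site, at chr5:135381836-135381898, rested on 123 IP and 17 SMInput reads in replicate 1, and on 86 and 16 in the highest cluster of replicate 2. Hsf5, a member of the heat shock factor family that spermatocytes need, had 4 sites in exon 4 of 522 bases. Each of its 6 clusters in replicate 1 (2.15 to 4.22) and 7 in replicate 2 (2.40 to 3.20) was called, and the sites were spread from border to border. In its short internal exons 3 of 6 clusters were called in replicate 1 and 1 of 3 in replicate 2, with medians of 2.22 and 1.64.

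Lrrc37a also had 4 sites, in exon 9 of 1739 bases, with site maxima of 2.25 to 3.08 in replicate 1 and 2.21 to 3.11 in replicate 2. It belongs to a family of leucine-rich repeat genes with related copies, so its reads may be shared with them. Muc1 had 3 sites, all in exon 2 of 1304 bases, and all 3 of its clusters in replicate 2 and 4 of 6 in replicate 1 were called. Qser1, which encodes a glutamine- and serine-rich chromatin protein, had 3 sites in exon 3 of 3678 bases. Its 11 clusters of replicate 1 had a median of 2.46 and its 14 of replicate 2 a median of 2.95, beside 1.35 and 1.85 in its short internal exons.

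Of 50 chromatin and transcription regulators on a list, 47 had a long internal exon and 45 had a cluster there. Of their clusters, 9.54% of 388 were called in replicate 1 and 11.3% of 309 in replicate 2, close to the shares of all long internal exon clusters. Shared sites, 8 in all, lay in Arid2, Arid1a, Ncoa6, Spen and Jmjd1c. These were 5 of the 45 listed genes with a cluster, beside 84 of 1972 genes with a cluster over all genes. The list was drawn up with earlier results of these data known. Arid2, a subunit of the PBAF chromatin remodeler, had 3 sites in exon 15 of 2843 bases. The strongest by the smaller value of both replicates, at chr15:96370165-96370239, had 2.66 from 26 IP and 7 SMInput reads in replicate 1. In replicate 2 it had 3.09 from 45 and 19. The site at chr15:96370280-96370385 had 3.15 from 94 IP and 18 SMInput reads in replicate 1 and 2.38 from 55 and 38 in replicate 2. Arid1a, a subunit of the related BAF complex, had 2 sites in exon 3, with maxima of 2.64 and 2.49 at the first and 3.08 and 2.13 at the second. Ncoa6, a coactivator of nuclear receptors, had 1 site in exon 8, at 2.39 and 2.85. Spen, a large corepressor with RNA recognition motifs, had 1 site in exon 13, at 3.21 and 2.02, while its clusters in long internal exons had medians of only 1.14 and 1.17.

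Of 48 genes of DNA repair and meiosis, 27 had a long internal exon and 23 a cluster in one. In replicate 1, 8.24% of 170 clusters were called, and in replicate 2, 9.60% of 125. Tex15, which male germ cells need for meiosis and for silencing of transposons, had 2 sites in exon 3. They had 2.64 and 2.43 in replicate 1 and 2.71 and 2.75 in replicate 2, from 22 and 19 IP reads in replicate 1 and 31 and 30 in replicate 2. Mdc1, a mediator of the DNA damage response, had 1 site in exon 10, at 2.63 from 51 IP and 14 SMInput reads and at 2.19 from 47 and 37. Of the Mdc1 clusters in long internal exons, 3 of 23 were called in replicate 1 and 2 of 18 in replicate 2, beside 8.12% and 12.3% over all such clusters.

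Of 54 genes of the centrosome, cilium and sperm flagellum, 26 had a cluster in a long internal exon, with 6.36% of 220 called in replicate 1 and 11.7% of 188 in replicate 2. There were called clusters of both replicates in 5 of these genes, but none overlapped, so the list held 0 shared sites. The 0 covers the 54 listed genes only. Tcte1, Cplane1 and Agbl2, which were not on the list, each had 1 shared site. Over all genes, 84 of the 151 with called clusters of both replicates had a shared site. Of 60 genes of cytoplasmic RNA regulation and germ granules, 19 had a cluster, with 3.77% of 106 called in replicate 1 and 12.0% of 92 in replicate 2. The single shared site in the listed genes lay in exon 11 of Eif4g3, a translation initiation scaffold that spermatocytes need to leave meiotic prophase. It reached 3.07 in replicate 1 and 2.66 in replicate 2, where it rested on 160 IP and 91 SMInput reads. Cnot4, Tut4 and Ythdf2, which each had 1 shared site, were not on this list. No list stood far above the share of all long internal exon clusters in either replicate. In replicate 1 the list of RNA regulation was well below that share, at 3.77% beside 8.12%, with 4 called clusters. In replicate 2 it was close, at 12.0% beside 12.3%.

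Some of the exons with the most clusters had no shared site. Fsip2 encodes a protein of the sperm fibrous sheath, and its exon 17, of 9659 bases, held 25 clusters in replicate 1 and 29 in replicate 2. Of these, 0 and 2 were called, with medians of 0.88 and 0.96. Its exon 16, of 8944 bases, held 30 and 23 clusters, of which 3 and 2 were called, near the shares of 8.12% and 12.3% over all long internal exon clusters, and none of the called ones of the replicates overlapped. Srrm2 encodes a scaffold of nuclear speckles, and its exon 11 held 29 and 25 clusters with medians of 0.37 and 0.64. Akap12, which encodes an anchor of protein kinases, had 33 and 20 clusters in exon 3 with medians of 0.16 and 0.41. None of the clusters of these exons of Srrm2 and Akap12 was called in either replicate, and none of these 4 exons held a shared site.

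Some genes outside the rule for named genes are given here because their values were seen. Ggn, a germ cell gene named gametogenetin, had a site at chr7:29172665-29172784 in exon 2 of 2243 bases. All 3 called clusters of replicate 2 in it and 2 of 4 in replicate 1 were listed at a −log10(P value) of 400, with maxima of 3.43 in replicate 1 and 3.50 in replicate 2. Tut4, a terminal uridylyltransferase, had the widest site, with 447 bases across its exon 28 of 448 bases, at 3.04 and 3.30. Ythdf2, itself a cytoplasmic reader of m6A, had a site of 70 bases in exon 4, with 3.01 from 19 IP and 4 SMInput reads and 3.80 from 27 and 7. Drosha, the nuclease that starts microRNA processing, had a site in exon 4 at 2.88 and 2.80.

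The base composition of shared sites was measured in windows of 100 bases around their centres, kept inside the exon and read on the strand of the mRNA. C made up 33.4% of their bases and G 19.6%, against 27.0% and 25.4% in 23270 windows tiled over the long internal exons that held a cluster. In 93 windows at joined clusters whose IP was not above SMInput in either replicate (a log2 ratio of 0 or less), C was 30.5% and G 26.8%. T was 24.3% at shared sites, 20.9% in the tiles and 18.5% at the clusters not above SMInput. A was 22.7%, 26.7% and 24.2%, in the same order. Shared sites thus had less G and A and more C and T than the tiles, although their median GC content of 54.0% was close to that of the tiles, 53.0%. G was below the tile median in 109 of 131 windows, and C was above it in 101. With 1 site per gene C was 32.7% and G 20%. Of the 16 pairs of neighbouring bases, the 8 with the largest differences from the tiles are given. CC was 12.0% at shared sites and 8.44% in the tiles, TC 8.60% and 6.09%, CT 9.69% and 7.30%, and TT 6.15% and 4.59%. GA was 4.29% and 7.64%, AG 6.70% and 9.13%, AA 5.11% and 7.37%, and GG 4.94% and 6.57%. At the clusters not above SMInput, CC was 10.4%, TC 6.82%, CT 7.42% and TT 3.56%. There GA was 7.90%, AG 9.03%, AA 6.16% and GG 6.99%. CG differed more from those clusters than CC did, with 1.85% at shared sites, 4.56% at those clusters and 2.60% in the tiles. These comparisons of composition were chosen after the data were seen.

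DRACH, which covers the motif GAACA as well as the motif AAACC and most matches of GGAC, was found in 110 of 131 windows at shared sites (84.0%, 76.7 to 89.3). It was found in 79.6% (70.3 to 86.5) of windows at clusters not above SMInput and in 87.1% of the tiles. GGAC was found in 32.1% (24.7 to 40.5), 33.3% (24.6 to 43.4) and 35.8%. TGGAC, which contains GGAC, was in 9.92%, 12.9% and 12.5%. GAACA was in 13.7% (8.87 to 20.7), 6.45% (2.99 to 13.4) and 12.8%, and AAACC in 9.16%, 6.45% and 11.3%. For each of these motifs the intervals at shared sites and at clusters not above SMInput overlapped. A window of this length holds DRACH nearly everywhere, so its presence says little of a single site.

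Sequences of 100 bases around the centre of the strongest shared site are given for 14 named genes, those with the largest smaller log2(fold change) of both replicates other than St8sia3, to show how much single sites differ from the mean composition. The number of G runs from 12 in Hsf5 and Tex15 to 30 in Lrrc37a, and that of C from 20 in Lrrc37a to 40 in Fam186a. The sequences are from GRCm38 (mm10), in the CDS of the exon named above, read 5′ to 3′ on the strand of the mRNA, with DRACH matches in capitals. The windows of Sox30, Fam186a and Cnot4 hold 0 matches, and that of F5 holds 5. A window at the centre of a wide site can leave out its highest cluster, as in Sox30.
1700017B05Rik, chr9:57257905-57258004, minus strand: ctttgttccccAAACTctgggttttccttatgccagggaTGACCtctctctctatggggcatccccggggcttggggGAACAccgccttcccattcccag
F5, chr1:164193985-164194084, plus strand: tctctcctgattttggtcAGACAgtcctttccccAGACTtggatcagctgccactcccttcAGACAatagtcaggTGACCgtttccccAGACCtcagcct
Muc1, chr3:89231068-89231167, plus strand: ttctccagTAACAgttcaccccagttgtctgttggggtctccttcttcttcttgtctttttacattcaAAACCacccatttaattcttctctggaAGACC
Sox30, chr11:45991884-45991983, plus strand: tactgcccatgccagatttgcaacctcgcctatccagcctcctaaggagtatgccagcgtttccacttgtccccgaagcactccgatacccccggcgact
Fam186a, chr15:99944683-99944782, minus strand: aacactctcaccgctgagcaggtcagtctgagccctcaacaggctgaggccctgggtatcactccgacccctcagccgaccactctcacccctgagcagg
Cnot4, chr6:35051199-35051298, minus strand: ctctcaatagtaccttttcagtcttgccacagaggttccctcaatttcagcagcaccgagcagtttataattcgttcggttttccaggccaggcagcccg
Nfatc3, chr8:106108674-106108773, plus strand: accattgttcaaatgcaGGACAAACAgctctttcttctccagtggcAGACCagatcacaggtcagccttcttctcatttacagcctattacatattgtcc
Pom121, chr5:135381817-135381916, minus strand: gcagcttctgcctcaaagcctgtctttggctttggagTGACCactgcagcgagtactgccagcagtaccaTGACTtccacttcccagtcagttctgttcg
Qser1, chr2:104788736-104788835, minus strand: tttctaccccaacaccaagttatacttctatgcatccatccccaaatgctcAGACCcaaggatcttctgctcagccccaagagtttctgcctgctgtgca
Hsf5, chr11:87635948-87636047, plus strand: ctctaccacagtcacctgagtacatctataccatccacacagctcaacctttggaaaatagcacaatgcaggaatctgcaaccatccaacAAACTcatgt
Lrrc37a, chr11:103458015-103458114, minus strand: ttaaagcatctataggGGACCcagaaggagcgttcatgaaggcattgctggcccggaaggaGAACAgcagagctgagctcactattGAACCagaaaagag
Eif4g3, chr4:138126011-138126110, plus strand: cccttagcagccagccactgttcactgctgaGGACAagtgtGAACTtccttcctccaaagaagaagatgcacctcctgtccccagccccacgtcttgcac
Arid2, chr15:96370152-96370251, plus strand: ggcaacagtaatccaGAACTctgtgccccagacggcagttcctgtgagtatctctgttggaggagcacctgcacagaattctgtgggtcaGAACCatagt
Tex15, chr8:33582520-33582619, plus strand: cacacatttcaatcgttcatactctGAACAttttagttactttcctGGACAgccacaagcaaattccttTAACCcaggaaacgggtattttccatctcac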

How the data were processed

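Per the study's methods and processing notes, the authors removed adapters with cutadapt and ribosomal RNA reads with Bowtie2, aligned to mm10 with STAR, removed PCR duplicates by molecular identifiers, called clusters in each replicate with Clipper and compared each with the SMInput of that replicate. For each cluster they deposited a −log10 of the P value, from a chi-square or Fisher's exact test on its reads. Beside it the authors gave a log2 ratio, IP over SMInput, after scaling each to its library total. Both were used as values of single clusters.

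Here, library totals and reads were worked out as the whole numbers that return both listed values, with Fisher's exact test where an observed or expected number was below 5. Of 301288 clusters in replicate 1 and 199766 in replicate 2 listed between 0 and 400, 100% had a single solution. The procedure was tested on simulated data. Depth was 5133438 and 4637612 IP reads and 8706391 and 16696122 SMInput reads. The transcript of each gene had the longest CDS, with ties by the longest transcript and then the lowest identifier. Of all clusters 0 ran past a chromosome end of GRCm38. Read positions in repeats and in genes with near-identical copies are uncertain.

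Named genes were those of the 8 strongest shared sites (by the smaller of the replicate maxima, 1 site per gene), the 6 genes with the most shared sites (ties by the strongest site), the 4 exons with the most clusters with ties, and up to 4 genes of each list with the most shared sites. An item that this rule takes is not reported here. The gene lists and the genes on them were chosen with earlier results of these data known. Clusters and genes are not replicates, and no test across them was made. Alternatives covered thresholds, exon length, the placing of clusters, distance to codons, transcripts, reads, overlap, each replicate alone, the comparison exons and the motif windows and background. Python 3.11.15, numpy 2.4.6, pandas 2.3.3, scipy 1.17.1 and pysam 0.24.0 were used.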

Additional observations from a re-analysis of the deposited data

How the results depend on the processing

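No paired analysis was possible because no result comes from a test over samples. Each deposited ratio is itself a paired value, of an IP and the SMInput of its replicate. Of 73 alternatives, 40 left the value within its interval, the spread between replicates or, for counts, 1.5 times. The share called in long internal exons, for replicates 1 and 2, was 1.91% and 2.27% with both thresholds at 3, 15.1% and 23.7% when a log2(fold change) of 1 sufficed, 6.02% and 11.3% with a Benjamini-Hochberg adjusted P of at most 0.05, 7.43% and 11.1% for exons of at least 300 bases, and 13% and 13.6% for clusters of at least 10 reads. All alternatives by read number cover only clusters with recovered reads, so they also leave out the uncalled clusters with a −log10(P value) listed at 0. The share called was 7.28% in replicate 1 with 1 cluster per joined site. Without the genes with 3 or more shared sites, an alternative chosen after seeing the data, it was 6.98% and 10.9%. The median log2(fold change) was 1.03 in replicate 1 for exons of at least 300 bases, and in replicate 2 it was 1.20 for at least 600 bases and 1.09 for at least 10 reads. Shared sites fell to 26, and their genes to 20, with both thresholds at 3. Each replicate alone gave 469 to 589 called sites and 296 to 363 genes, and 151 genes had called clusters of both replicates anywhere in their long internal exons. Long internal exons were above the comparison exons in all 10 alternatives to that difference. It was 1.20 and 1.47 percentage points with both thresholds at 3, and in replicate 1 it was 5.08 with at least 10 reads and 4.90 in genes with both kinds of exon. The share of genes with the higher median in long exons was 63.2% and 69.6% with at least 3 clusters of each kind, and 56.4% in replicate 1 with at least 10 reads. Motif differences of DRACH, GGAC and AAACC changed sign with the window or the background. The difference of GAACA changed sign only with both, in windows of 200 bases against tiles (23.7% at shared sites, 23.9% in the tiles). Against tiled windows that of DRACH was -3.17 percentage points and that of GAACA 0.990, and for TGGAC in windows of 200 bases it was -8.56. The causes of these shifts were not tested. Leaving out Fam186a, 20 to 49 reads and 1 site per gene were also chosen after seeing the data. Clusters with few reads limit all shares.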
